A study of Mus musculus and Homo sapiens with 22 samples.

Results

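The promoters occupied by FLAG-tagged PROX1 in mouse embryonic fibroblasts (MEFs) were compared with those occupied in Hep3B cells, a human hepatocellular carcinoma line, with genes matched by symbol ignoring case between the mouse and human annotations. A gene was called bound when a peak summit lay within 1000 bp of one of its protein-coding transcription start sites (TSSs). Of 15738 matched symbols, 7189 (45.7%) were bound in both lists, 3662 (23.3%) in MEFs only, 501 (3.18%) in Hep3B only and 4386 (27.9%) in neither. The members were chosen by the positions of the summits in the MEF and Hep3B lists, so the 4 classes are the rule itself, and their sizes and the strength of their peaks are descriptions without a test.

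The data are CUT&RUN libraries, in which an antibody directs a nuclease to cut around the bound protein. The MEFs were primary cells from C57BL/6N embryos at E13.5, transduced with lentiviruses carrying rtTA (FUW-rtTA) and a doxycycline-inducible FLAG-tagged mouse Prox1 (tetO-FLAG-mmProx1). The Hep3B cells were a puromycin-selected stable line carrying inducible human PROX1 (pLIX-Puro-hsPROX1), a construct that the labels name without a tag, and the FLAG tag is taken from the study's own description of the experiment and from the antibody used. Both cultures received 2 µg/ml doxycycline for 2 days, and 3 anti-FLAG libraries of each went into 1 pooled peak list. A list of endogenous Prox1 in the livers of wild-type C57BL/6J mice aged 2 to 3 months, pooled from 5 anti-Prox1 libraries, served as a readout that the rule did not use. Cell type, species, PROX1 ortholog and delivery of the transgene differ together between MEFs and Hep3B and cannot be told apart. Because each list pools its replicates, no spread between cultures and no sequencing depth can be read from it, and the intervals below are 95% Wilson intervals over genes or peaks that cover counting error only. No expression was measured in these lists, so the labelled cell types could not be checked against marker expression.

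PROX1 is a homeodomain transcription factor needed for lymphatic endothelium, lens and liver development, and it remains abundant in hepatocytes. Fibroblasts are mesenchymal cells that make extracellular matrix, whereas Hep3B cells derive from an epithelial liver tumour. The lists therefore describe the same tagged factor, in its mouse and human forms, placed in a mesenchymal and in an epithelial setting.

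The sequences around a few summits show what some strong or well known members of the bound classes looked like. USP1, a deubiquitinase, and CDKN2D, an inhibitor of CDK4 and CDK6, were among the 5 genes that ranked highest in both lists and are shown for both species. Mapk9, which encodes the kinase JNK2, had the strongest summit of the MEF-only genes, and Prrx1 and Twist1 encode mesenchymal transcription factors. GPSM3, a regulator of G-protein signalling, had the strongest summit of the Hep3B-only genes. Each window is 121 bp centred on the summit and written 5′ to 3′ on the strand of the gene. Capitals mark any of 8 short motifs on either strand, which are CCAAT of NF-Y, CCGGAA of ETS factors, TGCGCA of NRF1, AGGTCA of nuclear receptors, TGACGT of cyclic AMP response factors, TGACTCA of AP-1, and AAGACG beside AAGGCG of PROX1. Of these the core CCAAT that NF-Y binds, or its reverse complement, was found in every window printed except mouse Cdkn2d and Prrx1. The GC box CCGCCC, which is counted further below, was not among the marked motifs. It or its reverse complement stands unmarked in the mouse windows of Usp1, Cdkn2d, Mapk9 and Twist1.
Usp1 (mm10 chr4:98923382-98923502, plus strand): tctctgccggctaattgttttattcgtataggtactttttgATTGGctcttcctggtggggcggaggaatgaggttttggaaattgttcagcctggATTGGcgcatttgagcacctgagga
USP1 (hg38 chr1:62436596-62436716, plus strand): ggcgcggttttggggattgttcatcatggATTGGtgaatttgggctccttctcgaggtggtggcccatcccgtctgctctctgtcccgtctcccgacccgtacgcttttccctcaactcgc
Cdkn2d (mm10 chr9:21291112-21291232, minus strand): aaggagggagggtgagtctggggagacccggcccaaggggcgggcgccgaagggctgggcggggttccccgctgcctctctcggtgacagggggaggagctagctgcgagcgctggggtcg
CDKN2D (hg38 chr19:10569178-10569298, minus strand): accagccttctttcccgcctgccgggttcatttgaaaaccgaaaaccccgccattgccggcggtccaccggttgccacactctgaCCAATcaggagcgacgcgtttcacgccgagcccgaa
Mapk9 (mm10 chr11:49846612-49846732, plus strand): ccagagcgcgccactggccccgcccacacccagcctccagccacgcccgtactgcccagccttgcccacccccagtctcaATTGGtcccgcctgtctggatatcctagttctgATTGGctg
Prrx1 (mm10 chr1:163314551-163314671, minus strand): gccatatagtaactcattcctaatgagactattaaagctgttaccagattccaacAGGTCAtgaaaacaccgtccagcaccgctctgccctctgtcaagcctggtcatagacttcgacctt
Twist1 (mm10 chr12:33957519-33957639, plus strand): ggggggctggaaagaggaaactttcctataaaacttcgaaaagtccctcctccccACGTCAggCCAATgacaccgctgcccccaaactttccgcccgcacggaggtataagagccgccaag
GPSM3 (hg38 chr6:32195573-32195693, minus strand): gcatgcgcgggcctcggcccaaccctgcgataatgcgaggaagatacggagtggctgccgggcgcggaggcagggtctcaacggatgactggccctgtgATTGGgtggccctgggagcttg

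The other capitals mark the nuclear receptor core AGGTCA in Prrx1 and the cyclic AMP response core TGACGT, read on the opposite strand, in Twist1. No window printed held AAGACG or AAGGCG, the short cores read as PROX1 sites. The GC content of the windows ran from 46.3% at Prrx1 to 73.6% at mouse Cdkn2d.

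The MEF list held 40531 peaks and the Hep3B list 14369, so the deposited lists differ in length, and the sizes of the single-list classes moved with that difference. Of the genes bound in MEFs, 66.3% were also bound in Hep3B, and of those bound in Hep3B, 93.5% were also bound in MEFs. Of the 4163 genes bound in 1 list, 88.0% were MEF genes. When only the 14369 MEF peaks with the highest −log10 p were kept, 5271 genes (33.5%) were bound in both, 1417 (9.0%) in MEFs only, 2419 (15.4%) in Hep3B only and 6631 (42.1%) in neither. Of the Hep3B-bound genes 68.5% were then also bound in MEFs, and of the MEF-bound genes 78.8% were also bound in Hep3B. The MEF share of the single-list genes was then 36.9%, so the order of the single-list classes turned round. Under that setting 1918 genes of the shared class became Hep3B-only genes and 2245 MEF-only genes became genes bound in neither. Only the MEF list was shortened, and the lowest −log10 p it kept was 6.57. A gene without a MEF peak could therefore not leave the Hep3B-only class, and a MEF-only gene stayed in its class where its peak passed that value, so both outcomes follow from the setting and say nothing more about these genes.

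**Figure D1:**
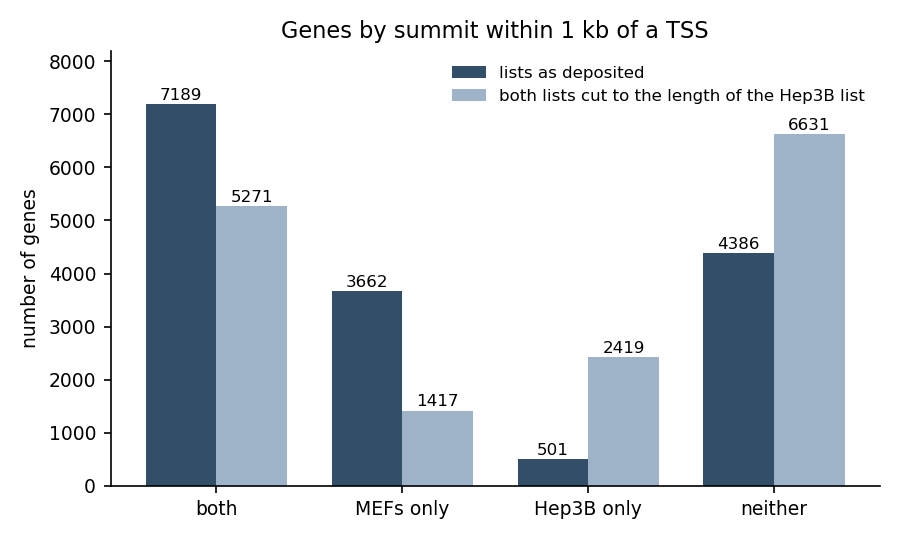
Number of genes (vertical axis) in each class, with the lists as deposited (dark bars) and with the MEF list cut to the 14369 peaks of the Hep3B list (light bars). MEF-only genes number 3662 and then 1417, and Hep3B-only genes 501 and then 2419.

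The genes nearest the 1000 bp limit show how fine the division is. In the MEF list Zfyve26, Ctdspl and Stxbp5 lay just inside, with summits 994, 996 and 996 bp from a TSS. Mamdc2, Hand2 and Setd7 lay just outside, at 1001, 1004 and 1004 bp. In the Hep3B list EFNA1, DOC2B and TXNDC12 were just inside, at 995, 996 and 999 bp, and TDP1, ACSS3 and ART4 just outside, at 1007, 1011 and 1020 bp. Hand2, a transcription factor of heart and limb mesenchyme, was thus placed in neither class although its MEF summit lay at 1004 bp.

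Genes of the single-list classes were also described by the nearest summit of the other list, beside the genes bound in neither. A MEF summit lay within 2 kb of a TSS for 114 of the 501 Hep3B-only genes (22.8%) and within 10 kb for 55.9%, with a median distance of 8407 bp. For genes bound in neither a MEF summit lay within 2 kb in 6.79%, with a median distance of 17660 bp. A Hep3B summit lay within 2 kb for 114 of the 3662 MEF-only genes (3.11%), with a median distance of 49955 bp, against 1.66% and 65615 bp for genes bound in neither. These distances come from lists of unequal length and were not compared at equal length.

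Among genes bound in both lists, HDGFL2, ANKRD10, USP1, CDKN2D and SP4 ranked highest, by the lower of their summit percentiles in the lists. HDGFL2, a chromatin reader of the HDGF family, had a −log10 p of 11.1 in MEFs (mm10 chr17:56078876-56080094) and 11.6 in Hep3B (hg38 chr19:4470982-4472384), with both summits upstream of the gene. ANKRD10, an ankyrin repeat protein, reached 10.5 in MEFs and 10.6 in Hep3B. USP1 reached 10.5 and 9.73, with the human summit 352 bp downstream of the TSS in an intron and the mouse summit 368 bp upstream. CDKN2D reached 10.4 and 9.57, with the mouse summit in the 5′ UTR. SP4, a GC-box binding factor, reached 10.3 and 9.53, with summits 751 and 774 bp upstream. All 5 were also bound in liver.

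The strongest MEF-only genes were Mapk9, Fxr2, Csgalnact2, Cdca3 and Abtb1, with −log10 p from 10.9 to 11.2. Mapk9 (peak mm10 chr11:49846119-49847323) had its summit 79 bp upstream of a TSS, and the nearest Hep3B summit to human MAPK9 was 484381 bp away. Fxr2, a paralog of the fragile X protein, had its nearest Hep3B summit at 30889 bp, Csgalnact2, a chondroitin sulfate enzyme, at 258871 bp and Abtb1 at 74628 bp. Cdca3, a regulator of mitotic entry, is a different case, since human CDCA3 had a Hep3B summit at 1025 bp. All but Csgalnact2 were bound in liver.

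The strongest Hep3B-only genes were GPSM3, RAP2B, ETV2, GOLT1A and NAIF1, with −log10 p from 9.23 to 10.9, and each had a MEF summit not far outside the window. GPSM3 (peak hg38 chr6:32195060-32196695) had its summit 110 bp upstream of a TSS, and the nearest MEF summit lay 1931 bp from mouse Gpsm3. RAP2B, a small GTPase, had its nearest MEF summit at 1322 bp, ETV2, an ETS factor of early endothelium, at 1095 bp, GOLT1A at 2241 bp and NAIF1 at 1615 bp. The Hep3B summit at ETV2 was itself 872 bp downstream of the TSS, in the 3′ UTR. The head of the Hep3B-only class therefore held genes with a peak nearby in both cell types.

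Shared genes carried the stronger peaks in both lists. Their median −log10 p in MEFs was 7.53, at the 82.8th percentile of all MEF peaks, against 6.13 and the 54.0th percentile for MEF-only genes. In Hep3B the medians were 6.96 (65.0th percentile) for shared genes and 6.34 (46.8th percentile) for Hep3B-only genes. Median peak width was 1150 bp for shared and 873 bp for MEF-only genes in MEFs, and 756 and 633 bp for shared and Hep3B-only genes in Hep3B. The share of MEF-bound genes that were also bound in Hep3B rose from 26.2% (22.0 to 30.8) in the weakest 10% of the MEF list to 87.7% (86.5 to 88.8) in the strongest 10%. From the other side, the share ran from 86.3% (82.7 to 89.2) to 96.7% (95.5 to 97.5).

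**Figure D2:**
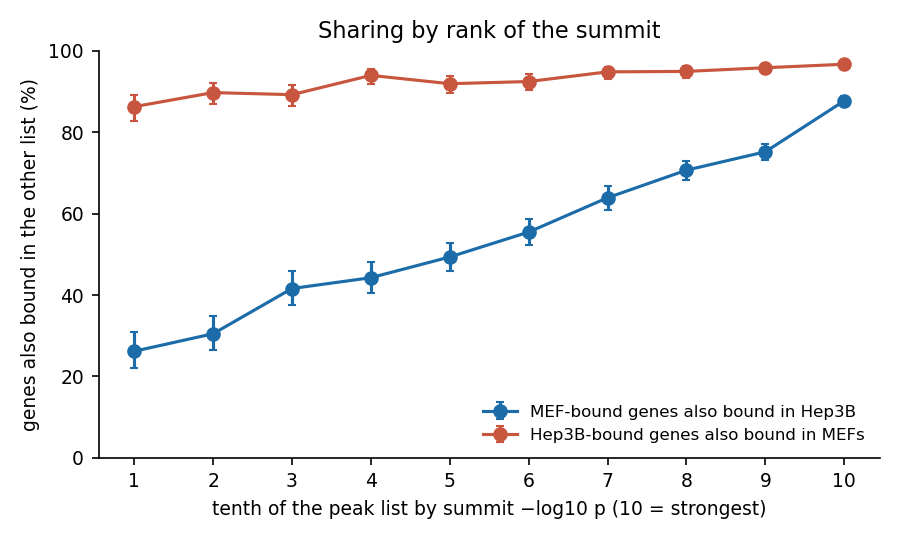
Share of bound genes that were also bound in the other list (vertical axis, percent) by 10% step of the list in which they were ranked (horizontal axis, 10 being the strongest), with 95% Wilson intervals over genes. The MEF curve climbs from 26.2% to 87.7%, while the Hep3B curve lies between 86.3% and 96.7%.

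A high rank in one list did not fix the rank in the other. Across the 7189 shared genes the percentiles had a Spearman correlation of 0.34 and a Pearson correlation of 0.30, given as descriptions because genes are not independent replicates and some share a peak. In MEFs 1267 of these genes had a peak in common with another shared gene, and in Hep3B 1410. The strongest 10% of each list held 2582 of them in MEFs and 1225 in Hep3B, and 725 were in both. Summits sat just upstream of the TSS, with a median offset of −56 bp in MEFs and −72 bp in Hep3B. For 47.4% of shared genes the offsets in the species differed by at most 100 bp. However, 54.0% of these genes in MEFs and 52.2% in Hep3B had their summit within 100 bp of a TSS. The Spearman correlation of the offsets was 0.16.

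The best known genes of the study fell into all 4 classes. The study took its direct targets from peaks that held a PROX1 motif. No motif filter was applied here, so a bound gene need not be a target by the study's definition. Myc, the growth-promoting transcription factor, was bound in both, with −log10 p of 7.11 in MEFs and 8.59 in Hep3B. Myh9, the heavy chain of non-muscle myosin IIA, was bound in both at 11.7 and 9.49, among the strongest peaks of either list. Sox9, a biliary and progenitor factor, reached 7.24 and 8.28, Map2, a neuronal microtubule protein, 8.01 and 6.45, and Tjp1, a tight junction scaffold, 6.90 and 4.81. Pparg, the adipocyte nuclear receptor, was bound in both at 5.74 and 5.31, and its MEF peak was lost at equal list length.

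Prrx1, a limb mesenchyme homeobox factor, was bound in MEFs only, at 6.62, with the nearest Hep3B summit at 131023 bp. The MEF summit of Prrx1 lay 901 bp from a TSS, outside a window of 500 bp. Its value was close to 6.57, the lowest kept at equal list length. Ebf2, a factor of brown adipocyte precursors, was bound in MEFs only as well, at 8.04, with the nearest Hep3B summit at 245980 bp. Krt19, a biliary keratin, was bound in Hep3B only, at 5.66, with the nearest MEF summit at 23071 bp. The PROX1 gene itself was bound in Hep3B only, with 3 peaks near its starts and a strongest −log10 p of 5.85 at a summit in an intron, while the nearest MEF summit was 196186 bp away. Alb and Ttr, which encode the plasma proteins albumin and transthyretin, and Hnf4a, a hepatocyte transcription factor, were bound in neither, and all were bound in liver. Tubb3, a neuronal tubulin, and Des, the muscle intermediate filament desmin, were bound in none of these lists.

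Gene lists were described by how many members were bound in each cell type, beside all matched genes, of which 68.9% were bound in MEFs and 48.9% in Hep3B, a difference of 20.1 percentage points. At equal list length that difference was −6.37 points. Over all matched genes 45.7% were bound in both, 23.3% in MEFs only and 3.18% in Hep3B only. At equal length these shares were 33.5%, 9.0% and 15.4%. The lists were chosen with earlier results of these data known, so their counts are descriptions.

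Mesenchymal and EMT transcription factors had the largest MEF minus Hep3B difference of the lists described: 17 of 25 were bound in MEFs only, 5 in both, 0 in Hep3B only and 3 in neither. The MEF-only members included Tbx15 (−log10 p 8.01), Foxc2 (7.75), Tcf4 (7.35), Twist1 (7.08), Zeb1 (6.65) and Zeb2 (6.57), which direct mesenchymal development or repress epithelial genes. Foxc1, Osr2, Runx1, Snai1 and Snai2 were bound in both. At equal list length 10 were still bound in MEFs only and 2 in Hep3B only, both of these (Osr2 and Snai2) having been shared genes. Their MEF share less their Hep3B share was 68.0 points with the deposited lists and 32.0 points at equal length.

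Fibroblast identity genes had 14 of 25 members bound in MEFs only, 5 in both, 1 in Hep3B only and 5 in neither. The strongest MEF-only members were Pdgfra, the receptor of mesenchymal progenitors (8.77), Col5a1 (8.56), Vim, which encodes vimentin (7.18), and Cdh11, a mesenchymal cadherin (6.83). The other 10 MEF-only members, among them Col1a2 (6.10) and Col3a1 (5.32), had weaker peaks that the shorter MEF list leaves out, and the list then stood at 24.0% in both cell types. Col1a1 was bound in both, at 8.86 in MEFs and 7.99 in Hep3B. Lox, the collagen crosslinking enzyme, was the Hep3B-only member, at 4.50.

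Of the matrix crosslinking and remodelling genes 14 of 26 were bound in MEFs only and 1 in Hep3B only, and at equal length 7 and 6. Mmp11 (8.19), Mmp19 (7.69) and Loxl4 (7.58) were the strongest MEF-only members. Of 43 collagens 16 were bound in MEFs only, 2 in both and 1, Col8a2, in Hep3B only, and at equal length Col5a1 was the MEF-only collagen left.

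The HOX clusters, which set position along the body and limb axes, had 21 of 39 genes bound in MEFs only, 4 in both and 0 in Hep3B only. Hoxa9 (8.88), Hoxd13 (8.46), Hoxc13 (7.21) and Hoxa7 (7.11) had the strongest MEF-only peaks. Hoxa4, Hoxa5 and Hoxa10 were among those bound in both. No HOX gene was bound in liver. At equal length 6 remained bound in MEFs only and 2, Hoxa4 and Hoxa5, were Hep3B-only genes. Voltage-gated and potassium channels had 51 of 125 members in MEFs only, 3 in Hep3B only and 66 in neither, and 11 and 5 in the single-list classes at equal length.

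Developmental signalling lists were then taken by the role of their members. The Wnt list had 29 of 65 members in MEFs only, 18 in both and 3 in Hep3B only, and at equal length 7 and 5 in the single-list classes. Among the Wnt ligands Wnt7b (7.69) was the strongest MEF-only gene, whereas the cytoplasmic components Gsk3a, Gsk3b, Apc, Axin1 and Axin2 were shared. The Hep3B-only members were Dkk1, a secreted Wnt inhibitor, Fzd8, a receptor, and Wnt3, a ligand. Of 45 TGF-β and BMP genes 20 were bound in MEFs only, including Smurf1 (9.50), Acvr2b (8.50) and Smad7 (7.74), 23 in both and 1, Bmp4, in Hep3B only. For this list the difference against all genes changed sign at equal length, from 22.1 to −2.52 points. The Notch list, at 20.0 points, stood at the background difference. Of 28 Hedgehog genes 8 were bound in MEFs only, among them Gli2 (7.28), 11 in both and 1, Sufu, in Hep3B only. Their MEF-only share, 28.6%, was near the 23.3% of all genes. At equal length 1 was bound in MEFs only and 5 in Hep3B only, so the order of these counts turned round.

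Lists for the fates of other lineages are read against all matched genes, of which 23.3% were bound in MEFs only, 45.7% in both and 3.18% in Hep3B only, so that a count of 0 or 1 Hep3B-only genes in a list of this size is near the background. Of 35 neuronal genes 12 were bound in MEFs only, 7 in both and 0 in Hep3B only, with the transcription factors Sox11 (9.33), Pou3f1 (8.77) and Pou3f3 (7.26) the strongest in MEFs only. At equal length 3 were bound in MEFs only and 5 in Hep3B only. Of 26 adipocyte genes 10 were bound in MEFs only, 11 in both and 0 in Hep3B only. Besides Ebf2, the related factors Ebf3 (7.67) and Ebf1 (7.34) and the coactivator Ppargc1b (7.81) were bound in MEFs only. At equal length both single-list classes held 5 members. Of 33 muscle and heart genes 8 were bound in MEFs only, near the share of all genes, 11 in both and 0 in Hep3B only, and at equal length 1 was bound in MEFs only and 4 in Hep3B only. Of 32 endothelial and lymphatic genes, the lineage in which PROX1 is best known, 10 were bound in MEFs only, 5 in both, 3 in Hep3B only and 14 in neither, and at equal length 2 and 4 in the single-list classes. Ets1 (9.21) and Vegfc (6.76), the ligand of lymphatic growth, were the strongest MEF-only members, and the Hep3B-only ones were Etv2, Nrp1 and PROX1 itself. Forkhead and T-box factors had 18 of 57 members in MEFs only, 16 in both and 1, Foxo1, in Hep3B only, and at equal length 5 and 7 in the single-list classes.

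Epithelial junction and polarity genes lay on the Hep3B side. Of 36, 7 were bound in Hep3B only, 3 in MEFs only and 19 in both, a difference of −11.1 points against 20.1 for all genes. The Hep3B-only members were Crb3 (8.21), Esrp1 (7.31), Cdh1 (7.09), Krt8 (6.88), Ocln (6.70), Cldn7 (6.06) and Marveld2 (5.09). They encode the apical protein Crumbs 3, an epithelial splicing factor, E-cadherin, a simple-epithelial keratin, occludin, a claudin and tricellulin. The MEF-only members Pkp3, Pard3 and Ovol2 had −log10 p from 3.94 to 5.49 and became genes bound in neither at equal length, where the difference was −36.1 points. Shared junction genes included Pard6b, at 10.4 in MEFs and 8.60 in Hep3B, Jup, at 9.67 and 8.65, and Cgn, at 8.63 and 9.01. The Hep3B peak of Krt8 is the same peak that was assigned to KRT18, the neighbouring keratin gene, which was bound in both. Cldn2, Cldn3 and Cldn4, claudins of the tight junction, were bound in neither.

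The Hippo pathway, a kinase cascade that restrains YAP1, had 29 of 34 members bound in both (85.3%), against 45.7% of all genes. The Hep3B-only members were Fat4 (7.16), Tead2 (5.60) and Ankrd1 (5.50), and Yap1 was bound in MEFs only (5.13). At equal length 20 Hippo genes were bound in both, 0 in MEFs only and 12 in Hep3B only. Biliary and oncofetal genes had 9 of 27 in both, 5 in MEFs only and 3 in Hep3B only, the last being Cldn7, Krt19 and Lin28b. At equal length the order of the single-list counts turned round, with 4 in both, 1 in MEFs only and 8 in Hep3B only. Igf2, a fetal growth factor, was the strongest of the MEF-only members, at 7.88.

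Hepatocyte genes were taken as transcription factors and effector genes. Of 28 transcription factors 17 were bound in both, 2 in MEFs only, 3 in Hep3B only and 6 in neither, where 45.7% of all genes were bound in both. At equal length 8 were bound in both, 1 in MEFs only, 12 in Hep3B only and 7 in neither, with Foxa1 and Foxa2 among those that lost their MEF peak. Shared members included Esrra (8.88 in MEFs and 10.96 in Hep3B), Foxa3 (9.49 and 8.92), Cebpa (7.20 and 8.70), Tbx3 (7.67 and 7.02) and Gata4 (6.96 and 5.16). The Hep3B-only members were Nr0b2 (6.41), Creb3l3 (6.29) and Nr5a2 (6.14), which encode the bile acid regulated repressor SHP, a fasting-induced lipid regulator and the receptor LRH-1. Ppara, the receptor that drives fatty acid oxidation, was a strong MEF-only gene, at 8.90. Hnf4a, Nr1h4, Nr1i2 and Nr1i3 were among those bound in neither, and each of these was bound in liver.

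Of 28 hepatocyte effector genes 20 were bound in neither cell type and 0 in both, against 27.9% and 45.7% of all genes. In liver 28 were bound, against 32.6% of all genes, but the list was chosen with the liver results known and this count is no independent contrast. The Hep3B-only members were F10 (8.06), Cps1 (7.58), Apoa2 (6.29), F2 (6.26), Asgr1 (6.01) and Ambp (5.16), which include coagulation factor X, the first enzyme of the urea cycle and prothrombin. The MEF-only members were Apob (7.84) and Apoh (7.70). The nearest Hep3B summits to Cps1, F2 and Apoa2 lay 908, 816 and 626 bp from a TSS, outside a window of 500 bp. The nearest MEF summits to Apob and Apoh, at 943 and 587 bp, also lay outside that window. Only Apob and Apoh could have changed class at equal list length, where the MEF list alone was cut, and both passed the lowest value kept, 6.57. The counts were the same there, which follows from that setting.

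Lists of genes used by most cells are read against the 45.7% of all genes that were bound in both, or 33.5% at equal length. For genes with CpG-rich promoters in both species, as defined below, the shares were 65.2% and 48.8%. The list counts were not matched for CpG content. For the single-list classes all genes stood at 23.3% in MEFs only and 3.18% in Hep3B only, or 9.0% and 15.4% at equal length. Of 29 genes of cholesterol synthesis and uptake 28 were bound in both, with Npc2 (11.6 in MEFs and 8.63 in Hep3B), Lss (11.1 and 8.05) and Hmgcs1 (9.20 and 8.96) among the strongest. Splicing factors had 41 of 45 in both, the proteasome 41 of 49, mitochondrial ribosomal proteins 62 of 78 and cytosolic ribosomal proteins 60 of 82. In the MYC and cell cycle list 38 of 51 were bound in both and the other 13 in MEFs only, including Ccne1 (8.79), Mki67 (7.98), Ccna2 (7.53) and Mycn (7.12). That MEF-only share, 25.5%, was near that of all genes, and at equal length 5 were bound in MEFs only and 7 in Hep3B only. DNA replication genes had 33 of 42 in both and 8 in MEFs only, with Rpa1 (9.41) and Cdt1 (8.60) the strongest of the latter. Translation initiation factors had 38 of 50 in both, and genes of mitochondrial complex I and ATP synthase 36 of 46. At equal length the shared counts were 24 of 29 for the cholesterol genes, 31 of 45 for splicing factors and 27 of 49 for the proteasome. They were 40 of 82 for cytosolic ribosomal proteins and 24 of 50 for translation initiation factors. Cytosolic ribosomal proteins (48.8%) and translation initiation factors (48.0%) then stood near the 48.8% of genes CpG-rich in both species. Solute carriers, below the background, had 117 of 349 in both, 84 in MEFs only and 14 in Hep3B only. Corepressor genes of the NuRD, HDAC and Polycomb list had 32 of 47 in both and 13 in MEFs only, among them Rnf2 (8.09), Ezh2 (7.76) and Chd4 (7.58). At equal length 21 were bound in both, 6 in MEFs only and 11 in Hep3B only.

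**Figure D3:**
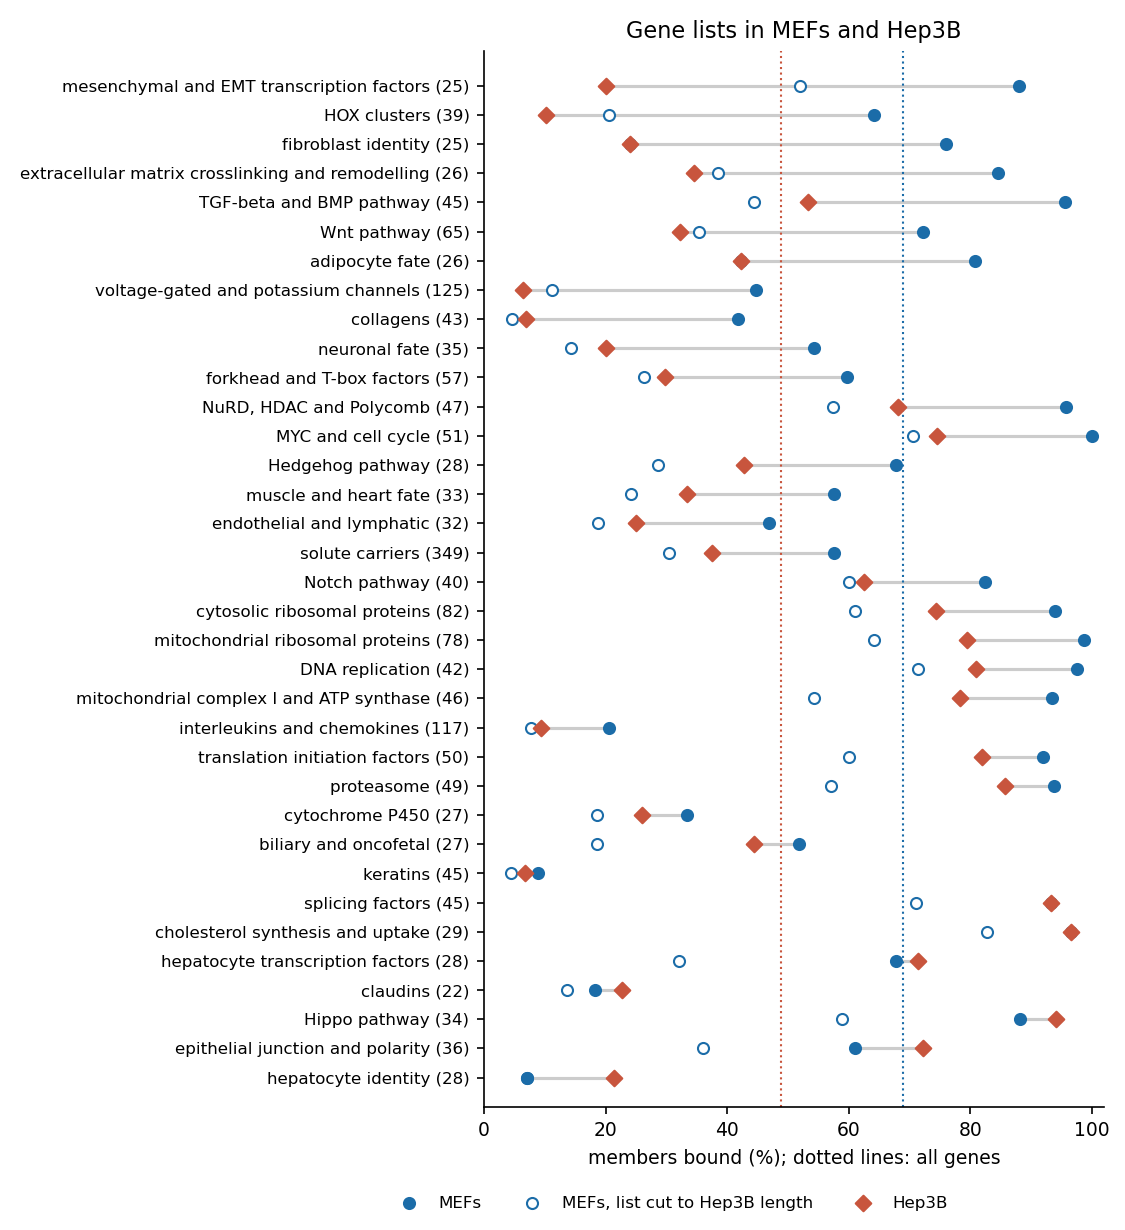
Share of members bound (horizontal axis, percent) in MEFs (filled circles), in MEFs with the list cut to the Hep3B length (open circles) and in Hep3B (diamonds) for each gene list (vertical axis, number of matched members in brackets), with dotted lines at the values for all genes. Lists are ordered by the MEF minus Hep3B difference, from mesenchymal transcription factors (88.0% and 20.0%) to hepatocyte identity (7.14% and 21.4%).

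Liver binding was measured with another antibody on endogenous Prox1, and the rule did not use it. Genes bound in both cell types were bound in liver in 48.0% of cases (46.8 to 49.1), MEF-only genes in 26.9% (25.5 to 28.4), Hep3B-only genes in 29.1% (25.3 to 33.3) and genes bound in neither in 12.4% (11.5 to 13.4), against 32.6% of all genes. The liver and MEF lists are mouse and the Hep3B list is human. The intervals of the single-list classes overlapped, their difference was not tested, and no order between these classes is drawn. Their place between shared and unbound genes held in the 4 alternatives for which liver shares were taken, which were windows of 500 and 2000 bp, equal list length and an area of at least 500.

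Promoter CpG content followed the classes. The CpG observed/expected ratio, taken from 250 bp before to 50 bp after 1 principal TSS per gene, had medians of 0.81 in mouse and 0.88 in human for shared genes. They were 0.71 and 0.84 for MEF-only genes, 0.42 and 0.71 for Hep3B-only genes and 0.30 and 0.36 for genes bound in neither. Promoters with a ratio of at least 0.6 were called CpG-rich. This held in mouse for 81.6% of shared, 62.9% of MEF-only, 32.1% of Hep3B-only and 19.4% of unbound genes. In human the same shares were 94.1%, 81.7%, 61.7% and 33.4%. At equal list length the single-list classes no longer differed in this way, with 69.0% of MEF-only and 67.8% of Hep3B-only genes CpG-rich in mouse, and 85.2% and 85.8% in human. Of the 2419 Hep3B-only genes of that setting 1918 had been shared genes. The share therefore describes a different set from the 501 genes above, which stayed in their class. Of 8714 genes CpG-rich in both species 65.2% were bound in both cell types, and of 3741 CpG-poor in both species 6.52% were.

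From the 10% of genes with the lowest CpG ratio to the 10% with the highest, the bound share rose from 20.4% to 92.2% in MEFs and from 7.62% to 64.5% in Hep3B, and in liver from 19.1% to 39.5%. The liver shares of the classes were alike at CpG-rich and CpG-poor promoters. Among CpG-rich genes 47.6% of shared, 27.5% of MEF-only, 29.5% of Hep3B-only and 10.6% of unbound genes were bound in liver. Among CpG-poor genes the same shares were 50.4%, 25.8%, 31.1% and 13.6%.

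**Figure D4:**
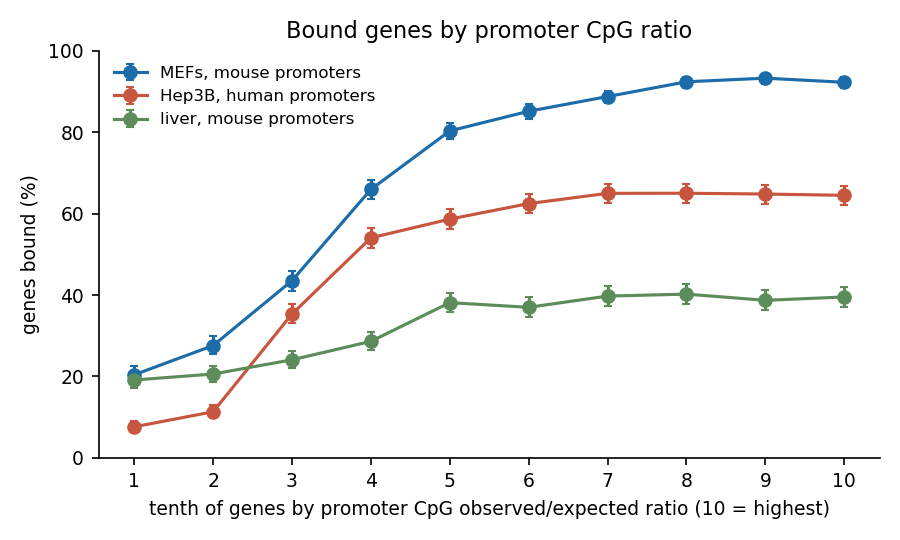
Share of genes bound (vertical axis, percent) by 10% step of genes ranked on the promoter CpG observed/expected ratio of the species concerned (horizontal axis), with 95% Wilson intervals over genes. The MEF and Hep3B curves climb to 92.2% and 64.5%, and the liver curve to 39.5%.

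Short motifs were counted in the same 300 bp promoters, on both strands, and a match is a description of letters and not of a bound site. The ETS core CCGGAA stood in 31.6% (30.5 to 32.7) of shared, 19.4% (18.2 to 20.7) of MEF-only, 14.2% (11.4 to 17.5) of Hep3B-only and 7.50% (6.76 to 8.32) of unbound mouse promoters, against 21.5% of all. In human promoters the shares were 33.8%, 20.9%, 18.96% and 8.44%, against 23.3% of all. The palindrome TGCGCA, as in NRF1 sites, was found in 16.9%, 9.72%, 7.58% and 4.86% of mouse promoters, against 11.6% of all. CCAAT stood in 41.5% of shared, 31.3% of MEF-only, 36.1% of Hep3B-only and 33.7% of unbound mouse promoters, against 36.8% of all. Among all mouse promoters AAGGCG stood in 17.2%, AAGACG in 6.40%, TGACGT in 10.1% and TGACTCA in 3.97%. The nuclear receptor core AGGTCA ran the other way in mouse, at 10.9% of shared, 11.8% of MEF-only, 18.4% of Hep3B-only and 17.4% of unbound promoters, against 13.2% of all.

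Around the summits themselves, windows reaching 100 bp to either side were set beside windows of the same peaks shifted by 500 bp to either side. CCAAT was found in 35.0% of shared MEF summit windows against 19.1% of the shifted windows, and in 24.9% against 19.04% for MEF-only summits. In Hep3B the values were 32.6% against 17.0% for shared and 27.3% against 16.9% for Hep3B-only summits. Other promoter motifs had a higher ratio to the shifted windows than CCAAT (1.83) in the same shared MEF peaks. TGCGCA stood at 13.2% against 2.88%, CCGGAA at 24.2% against 7.20%, TGACGT at 8.94% against 3.03% and the GC box CCGCCC at 64.0% against 22.0%. The shifted windows were not matched to the summit windows in base composition. These motifs and the PROX1 cores hold the pair CG, which CCAAT does not, so the ratios do not rank the motifs. In shared Hep3B peaks TGCGCA stood at 11.6% against 2.89% and CCGGAA at 23.7% against 7.97%. The PROX1 core AAGGCG was found in 15.7% of shared MEF windows against 9.32%, and in 16.5% against 9.27% in Hep3B. The other PROX1 core, AAGACG, was found at 4.56% against 4.78% in MEFs and 5.09% against 5.38% in Hep3B.

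The share of summit windows with CCAAT climbed with the rank of the peak in both cell types. This relation was looked at after the sequences above had been seen. In MEFs it rose from 14.5% (11.3 to 18.4) of the weakest 10% of peaks to 48.2% (46.3 to 50.1) of the strongest 10%, while the shifted windows stayed between 18.2% and 21.9%. In Hep3B it rose from 17.3% (13.9 to 21.2) to 46.3% (43.3 to 49.2), with shifted windows between 15.4% and 18.7%. The ETS core rose less, from 8.33% to 21.9% in MEFs and from 18.2% to 22.1% in Hep3B. AAGGCG went from 12.1% to 17.6% in MEFs and from 13.1% to 20.4% in Hep3B.

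**Figure D5:**
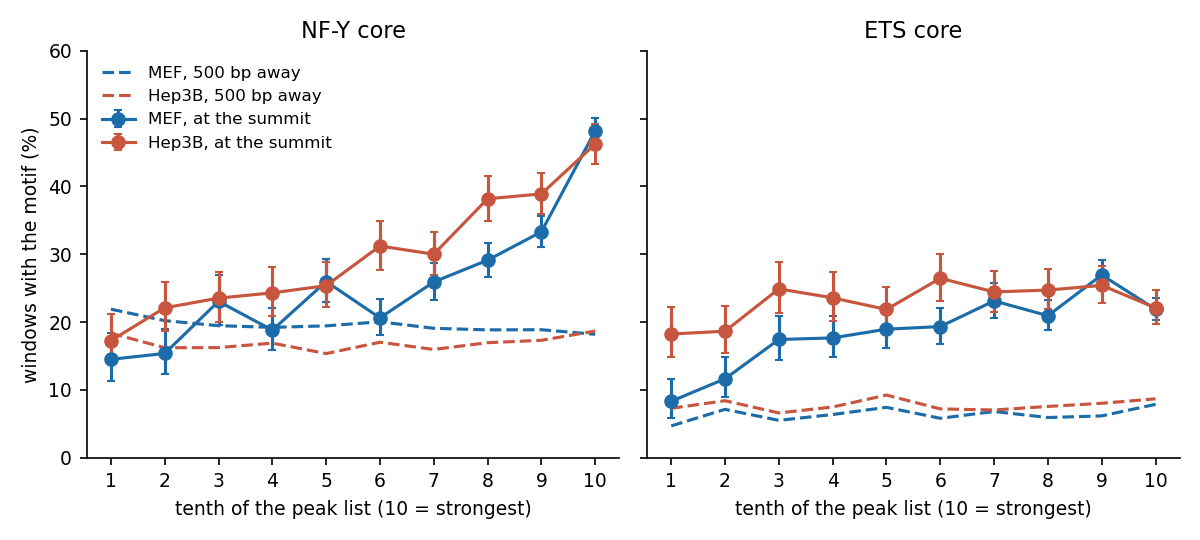
Share of windows (100 bp to either side of a centre) with the NF-Y core (left) and the ETS core (right) on either strand (vertical axis, percent), by 10% step of the peak list (horizontal axis, 10 being the strongest), for promoter peaks of the matched genes. Points with 95% Wilson intervals over peaks are windows at the summit and dashed lines windows 500 bp away. The NF-Y core reaches 48.2% in MEFs and 46.3% in Hep3B.

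Peaks away from every protein-coding TSS, which the classes leave out, differed between the cell types in the AP-1 site TGACTCA. It stood in 15.3% (14.8 to 15.7) of 27543 such MEF summit windows and in 8.26% (7.59 to 8.99) of 6002 such Hep3B windows, against 3.84% and 3.22% of the shifted windows. At promoter summits it was rare, in 2.09% of shared and 3.73% of MEF-only MEF windows. These shares were not taken at equal list length.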

How the data were processed

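The series holds 22 CUT&RUN libraries, of which the 3 MEF and 3 Hep3B anti-FLAG libraries and the 5 liver anti-Prox1 libraries were used here through their pooled lists, and the IgG lists were not used. The authors trimmed reads with Trim Galore 0.6.6, aligned them to mm10 or hg38 with Bowtie2 2.4.2 and called consensus peaks over replicates with Genrich 0.6.1. The deposited lists give, per peak, a score, a signal value (the area under the significance curve), a summit −log10 p and a summit −log10 q. The score is capped for 24.2% of MEF and 24.7% of Hep3B peaks and was not used to rank. The files' smallest area was 200.0 in MEFs and Hep3B and 500.0 in liver.

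Summits were assigned to TSSs of protein-coding transcripts in GENCODE M21 and GENCODE 44 with Python 3.11.15 and pandas 2.3.3, and the assignment was tested on simulated peaks. Symbols matched ignoring case for 72.1% of mouse and 80.0% of human genes. The 12 mitochondrial-genome symbols were left out, and 1235 MEF-bound and 1051 Hep3B-bound symbols had no match. Peaks were ranked by −log10 p. For a gene with several peaks the strongest was used. Sequences were read from GRCm38 and hg38. Named were the 5 strongest genes of each class, the genes the study followed, the up to 5 strongest members per class of each list, and the 3 genes on either side of the distance limit in each list; further members were named after their values were seen. Members and lists were chosen with earlier results of these data known. The list of olfactory receptors held 1 matched gene, bound in neither. Alternatives covered window, list length, q, area, TSS set, peak position and promoter window. Some genes and sequences are not reported here.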

Additional observations from a re-analysis of the deposited data

How the results depend on the processing

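No paired analysis was possible because each list pools its replicates, and leaving out a replicate could not be run for the same reason. Cutting the MEF list to 14369 peaks gave 1417 MEF-only and 2419 Hep3B-only genes, so their difference reversed from 3161 to −1002, and an area of at least 500 left 4234 shared genes. In the other settings the class counts stayed within 1.5 times their values. The liver-bound share of shared genes was 41.9% at 500 bp, 52.8% at 2000 bp, 51.1% at equal length and 51.9% at the higher area. For MEF-only genes it was 24.1%, 30.3%, 35.4% and 37.5%, and for unbound genes 10.5%, 14.8%, 15.5% and 15.8%. For Hep3B-only genes it was 28.1% at 500 bp, 31.4% at 2000 bp, 37.2% at equal length and 35.7% at the higher area.

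The CpG-rich share of shared less unbound promoters was 59.1 points in mouse with the wide window, and 50.4 (mouse) and 45.8 (human) points at equal length. That of MEF-only less Hep3B-only promoters was 26.3 points in mouse with the wide window, and at equal length 1.26 in mouse and, reversed, −0.60 in human. Most Hep3B-only genes at equal length had been shared genes, so equal-length differences between the single-list classes describe other sets of genes. Median GC content of shared less unbound promoters was 5.20 (mouse) and 6.13 (human) points with the wide window and 5.67 (human) at equal length. MEF-only less Hep3B-only, it was 4.33 in mouse with the wide window, and 2.33 (mouse) and 3.33 (human) at equal length. The MEF-only less Hep3B-only share reversed at equal length for CCGGAA in mouse (−4.01 points) and human (−8.69), for CCAAT in mouse (5.47) and human (1.15), for TGACGT in mouse (−3.69), for TGCGCA in mouse (−1.50) and for AAGACG in mouse (−2.07) and human (−1.39). Other small differences changed sign too, among them that of the AP-1 site in both species. Against all genes, the MEF less Hep3B share reversed at equal length for several lists. Among them were TGF-β and BMP genes (−2.52 points), keratins (4.14) and interleukins and chemokines (4.66). Smaller list differences changed sign too. Hedgehog genes went from 4.91 to −7.92 points and the NuRD, HDAC and Polycomb list from 7.57 to −4.27. Muscle and heart genes went from 4.16 to −2.72 and the Notch list from −0.09 to 3.87.

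Of the genes of each class, 3098 shared, 1094 MEF-only, 100 Hep3B-only and 3881 unbound genes kept their class in all 11 settings. The depth of the libraries behind a list is not in it, so an unbound gene was not detected in that list and is not shown to lack the protein. Symbol matching leaves out renamed and duplicated genes, and paired promoters count 1 peak for more than 1 gene.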

Other observations

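Gene families that no list above covered were described by the letters at the head of their symbols, for heads with at least 20 matched genes. Families were picked after their counts were seen, and all matched genes stood at 23.3% in MEFs only, 45.7% in both and 3.18% in Hep3B only. Of 21 FGF genes, which encode fibroblast growth factors, 8 were bound in MEFs only, 2 in both and 0 in Hep3B only, and at equal list length 0 in MEFs only and 1 in Hep3B only. Of 23 cadherins (CDH) 8 were bound in MEFs only and 1, Cdh1, in Hep3B only, and at equal length 3 and 1. Of 26 phosphodiesterases (PDE) 12 and 1 were in these classes, and at equal length 5 and 4. RGS genes, which shorten G-protein signals, had 9 of 23 in MEFs only and 1 in Hep3B only, and at equal length 0 and 1. Families with over 80% of members bound in both with the deposited lists included CDC (28 of 32), CEP, the centrosomal proteins (31 of 36), POLR, the RNA polymerase subunits (24 of 28), and VPS, the vacuolar sorting proteins (29 of 35).

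By human chromosome, the X held the lowest share of shared genes, 13.6%, with 63.3% bound in neither.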
